A study of Rattus norvegicus with 32 samples.

Results

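The interferon-stimulated genes examined here are Irf7, Stat2, Isg15, Usp18, Ifit2, Ifit3, Mx1, Mx2 and Bst2, which were found by their gene names in the deposited counts of all 32 RNA-seq samples. All 9 were present among the 28914 genes of the count files. The samples were the nucleus accumbens (NAc), the subventricular zone (SVZ), Ammon's horn (CA) and the dentate gyrus (DG) of adult male Sprague-Dawley rats, with 4 saline (Sal) and 4 METH (methamphetamine) samples in each region. METH rats received 4 intraperitoneal injections of 10 mg/kg each, 2 h apart, control rats received saline on the same schedule, and brains were taken the day after the last injection. No genetic change was made in any animal, and the tissue was a dissected piece in which cells of several types were pooled. A lower level of a transcript in such bulk tissue can mean fewer cells of a type or less RNA per cell, and these cannot be told apart. A sample's name gives its region, its treatment and its replicate. The labels do not say which samples come from the same rat, so p-values measure the spread between these samples.

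Interferons are signalling proteins that cells release when they sense foreign or misplaced nucleic acids. They bind receptors made of Ifnar1 and Ifnar2 or related chains, which activate transcription factors, Stat2 and Irf9 among them, that enter the nucleus and bind the interferon-stimulated response element in promoters. The genes switched on in this way include further regulators, such as Irf7 and Usp18, and proteins that hinder viral replication. In the brain, microglia, astrocytes, endothelial cells and neurons can all respond, and the genes are transcribed at low levels in unchallenged tissue.

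Promoters are shown first because the response element lies in promoters of interferon-stimulated genes. RefSeq (GRCr8) gave a promoter for 5 of the 9 genes by symbol, Irf7, Stat2, Ifit3, Mx1 and Bst2, and the 250 bases before the gene start were searched on both strands for the core of the response element, GAAA and again GAAA with any 2 bases between them (TTTC and TTTC on the other strand). It was found in Irf7, Ifit3 and Bst2, that is in 3 of the 5, while 3.41% of the 33469 RefSeq promoters of this length held it. The 3 sequences follow in the direction of transcription, with the match in capitals.
Irf7 (GRCr8, chr1:205800024-205800273, minus strand): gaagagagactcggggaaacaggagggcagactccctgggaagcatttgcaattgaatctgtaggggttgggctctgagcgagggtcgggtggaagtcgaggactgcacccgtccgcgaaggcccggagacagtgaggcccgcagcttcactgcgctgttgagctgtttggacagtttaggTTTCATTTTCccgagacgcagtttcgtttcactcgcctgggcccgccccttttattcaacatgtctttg
Ifit3 (GRCr8, chr1:241527076-241527325, plus strand): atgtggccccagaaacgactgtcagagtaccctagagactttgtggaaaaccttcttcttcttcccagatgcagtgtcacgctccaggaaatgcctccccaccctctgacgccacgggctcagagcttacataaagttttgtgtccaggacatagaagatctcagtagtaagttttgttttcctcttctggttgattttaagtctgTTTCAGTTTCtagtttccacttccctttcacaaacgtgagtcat
Bst2 (GRCr8, chr16:18254968-18255217, minus strand): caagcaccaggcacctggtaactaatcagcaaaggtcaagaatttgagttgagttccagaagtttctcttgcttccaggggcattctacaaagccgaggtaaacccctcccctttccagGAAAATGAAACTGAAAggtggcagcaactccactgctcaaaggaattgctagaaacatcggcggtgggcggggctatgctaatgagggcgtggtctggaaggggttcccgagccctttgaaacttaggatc
The match began 69 bases before the start in Irf7 and 44 bases before it in Ifit3, on the strand opposite to the gene in both. Bst2 held 2 overlapping matches on its own strand, beginning 131 and 125 bases before the start. These letters were not in the windows of Mx1 and Stat2. A match is a description of the sequence and does not show that the site is bound.

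Libraries held 11094002 to 21869773 counted reads, so that 1 read was worth between 0.0459 and 0.0940 CPM (counts per 1000000, on upper-quartile library sizes). Several libraries stood apart in their cell type markers. The summed level of 6 striatal neuron markers was 199 CPM in NAc METH 3, against 2185 to 2582 CPM in the other NAc METH samples, and 1390 CPM in DG Sal 3, against 120 to 221 CPM in the other DG Sal samples. The sum of 4 dentate granule neuron markers had a median of 96.3 CPM in DG Sal (42.9 to 320) and 420 CPM in DG METH (87.6 to 549). In the CA it was 311 CPM in saline (132 to 561) and 249 CPM in METH samples (153 to 314). By this sum, DG Sal lay below DG METH and both CA groups in its median, with ranges that overlapped. The part of these cells in the DG comparisons was not tested. The names of the libraries in the file headers carry a library number. DG Sal 1 and 2 carry the numbers of METH 1 and 2 of the NAc and CA, DG METH 1 and 2 carry those of Sal 1 and 2, and SVZ METH 1 and 2, like SVZ METH 3 and 4, share a number. The sources used here do not say whether a number stands for a rat. If it does, the treatment of these 4 DG samples differs between the regions, so that the directions in the DG could be wrong, and the SVZ METH group holds fewer rats than its 4 libraries. Samples were grouped by their labels, and the members' values in the DG and SVZ are also given without these 4 libraries or with the SVZ METH libraries summed by number.

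All members but Stat2 were transcribed at low levels. Levels of different genes are compared here in CPM per kb of exon, as medians over the 32 samples. Stat2, which with Irf9 carries the signal to the nucleus, led with 9.46 CPM per kb. Mx2 followed with 2.66, Bst2 with 2.19, Ifit2 with 1.24, Isg15 with 1.13 and Irf7 with 0.98 CPM per kb, while Ifit3 had 0.55, Usp18 0.37 and Mx1 0.24 CPM per kb. Among 19382 genes with a median above 0, Stat2 lay at percentile 63.4 and Mx1 at percentile 15. Mx1 had as few as 2 reads in a sample and Usp18 had 0 reads in DG Sal 2, so their values in single samples carry a large counting error. The order at the top held in each region of the saline samples in so far as Stat2 was above every other member by its median, whereas the ranges of the lower members overlapped.

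**Figure D1:**
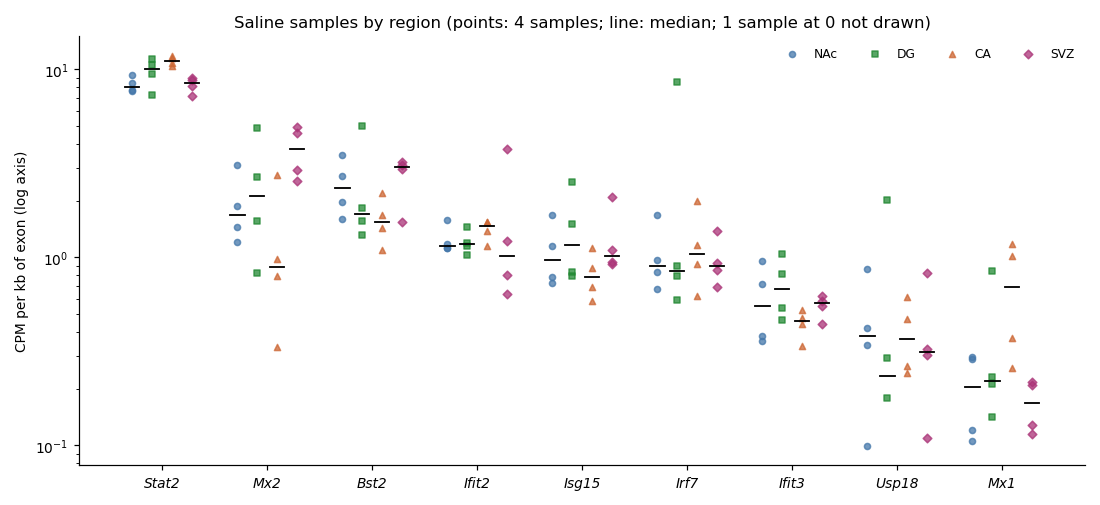
Levels of the 9 members in the 16 saline samples, in CPM per kb of exon on a log axis, with a point for each of 4 samples and a median line in each of the 4 regions (Usp18 in DG Sal 2, at 0, is not drawn). Stat2 lies highest in every region and Mx1 or Usp18 lowest, Mx1 is highest in the CA, and 1 DG sample, DG Sal 4, lies above the other 3 for Irf7 and Usp18.

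Whether METH changed these genes was tested in each region over the 8 samples with edgeR (quasi-likelihood), and p-values were adjusted over all genes tested by the Benjamini-Hochberg method. A gene was called when its adjusted p (FDR) was under 0.01 and its fold change above 1.5. No member was called in any region. That is 0 of 7 tested in the NAc, where Mx1 and Usp18 did not pass the filter on low counts, and 0 of 9 in the DG, CA and SVZ. The share of all genes called was also 0% in each of the 4 regions. DESeq2 called 0 members as well, beside 3 of all genes in the NAc, 183 in the DG, 10 in the CA and 2 in the SVZ. At an unadjusted p under 0.05 there were 0 members in the NAc, 0 in the DG, 2 in the CA (Isg15 and Stat2) and 1 in the SVZ (Mx1). Over all genes tested, this share was 3.39% in the NAc, 12.8% in the DG, 7.16% in the CA and 2.58% in the SVZ.

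The estimates leaned towards METH without passing the test. The fold change was above 0 on the log2 scale for 7 of 7 tested members in the NAc, 5 of 9 in the DG, 6 of 9 in the CA and 8 of 9 in the SVZ, where over all genes this share was 57.8%, 48%, 51.1% and 52.9%. In the NAc, Bst2 counted as above 0 with a value of 0.004. Without NAc METH 3, Ifit2 (-0.27), Isg15 (-0.19) and Bst2 (-0.29) were below 0 there, while Irf7, Ifit3, Stat2 and Mx2 stayed above it. The median log2 fold change of the members was 0.30 in the NAc, 0.05 in the DG, 0.50 in the CA and 0.28 in the SVZ, against 0.03, -0.01, 0.01 and 0.02 for all genes. The standard error (SE) of a member ranged from 0.07 for Stat2 in the CA to 1.07 for Mx1 in the DG, while the median SE over all genes lay between 0.14 and 0.22 in the 4 regions. The members move together across samples, so their signs are not independent of each other.

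**Figure D2:**
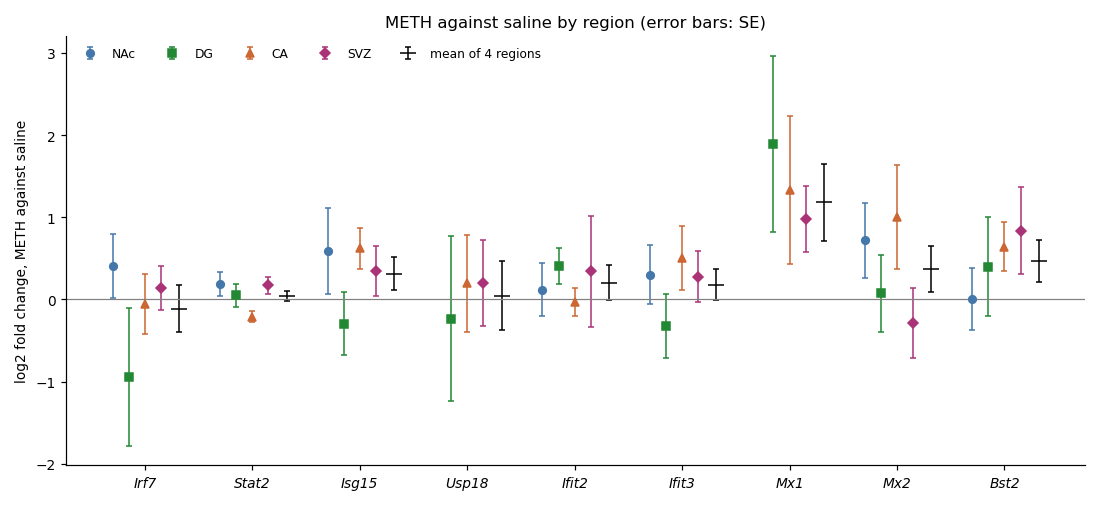
Log2 fold change of METH against saline (y axis) for the 9 members in each of the 4 regions and for the mean of the regions, with bars of 1 SE. Mx1 has the largest values (1.89 in the DG, 1.33 in the CA, 0.98 in the SVZ) with wide bars, Stat2 has the narrowest bars, and Mx1 and Usp18 have no value in the NAc.

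Averaged over the 4 regions in a fit of all 32 samples, 8 of 9 members were above 0 on the log2 scale (52.3% of all genes) and 1, Mx1, had an unadjusted p under 0.05 (7.83% of all genes). No member was called, as was the case for 0% of all genes, and DESeq2 called 0 members and 1 gene in all. The median log2 fold change of the members was 0.20, against 0.01 for all genes. The difference of the METH effect between regions was tested as an interaction, in which 0 of 9 members had a p under 0.05 (7.74% of all genes) and the smallest FDR was 0.769, for Stat2. Here too 0% of all genes were called by edgeR, and DESeq2 called 26 genes and 0 members. Pieces of the same rat may be in several regions, and if they vary together the p-values of the average are too small and those of the difference between regions too large. With the library number as a random block in limma voom, 0 of 9 members had a p under 0.05 in either test, beside 1117 and 1020 of all 16122 genes.

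Irf7 (rn6, chromosome 1 from 214248837 to 214252456, minus strand) encodes a transcription factor that interferon induces and that in turn amplifies interferon production. Its exons overlap those of Phrf1 on the other strand, and counting ignored the strand. In DG Sal it was at 1.17, 1.57, 1.78 and 16.9 CPM, and in DG METH at 2.83, 2.16, 2.82 and 3.39 CPM. The 206 reads of DG Sal 4 put that library far above the other 3 saline samples, and each METH sample lay above those 3. Phrf1 was at 77.3 CPM in DG Sal 4 and at 77 to 83.9 CPM in the other DG Sal samples. The log2 fold change of METH was -0.94 (SE 0.84, FDR 0.721) with DG Sal 4 and 0.89 (SE 0.27, FDR 0.293) without it, so that 1 library set the direction. With a run read from the library names as a covariate, it was 0.48 (SE 1.56). The labels do not say that these parts of the names stand for sequencing runs. The only run with both treatments held DG Sal 3 and DG METH 1 and 2, so DG Sal 4 had no METH sample of its run beside it. In the other regions Irf7 stood at 1.33 to 3.31 CPM in NAc Sal and 1.72 to 4.24 CPM in NAc METH, at 1.23 to 3.92 and 1.75 to 3.17 CPM in the CA, and at 1.38 to 2.71 and 1.71 to 2.43 CPM in the SVZ, where the groups overlapped in all 3 regions.

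Stat2 (rn6, chromosome 7 from 2691369 to 2707741, plus strand) was the most precisely measured member. In CA Sal it was at 41.7, 46.3, 43.2 and 47.5 CPM and in CA METH at 40.8, 37.9, 38.2 and 37.7 CPM. All 4 METH samples were below all saline samples, which was the case for 1.92% of the genes tested in the CA. The log2 fold change was -0.21 (SE 0.07), with an unadjusted p of 0.0142 and an FDR of 0.669. In the NAc 3 of 4 METH samples (40.6, 39.1 and 42.6 CPM) lay above the saline range of 30.7 to 37.5 CPM, and the fourth, NAc METH 2, lay below it with 27.9 CPM. In the SVZ 3 METH samples (36.3, 39.8 and 39.1 CPM) were above the saline range of 28.9 to 36.2 CPM, and the other was at 33.7 CPM. Log2 fold changes were 0.17 (SE 0.11) for the SVZ, 0.05 (SE 0.14) for the DG and 0.19 (SE 0.14) for the NAc, and the test of a difference between the regions gave a p of 0.108. The direction in the CA was thus opposite to that in the other regions, but the difference did not pass the test.

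**Figure D3:**
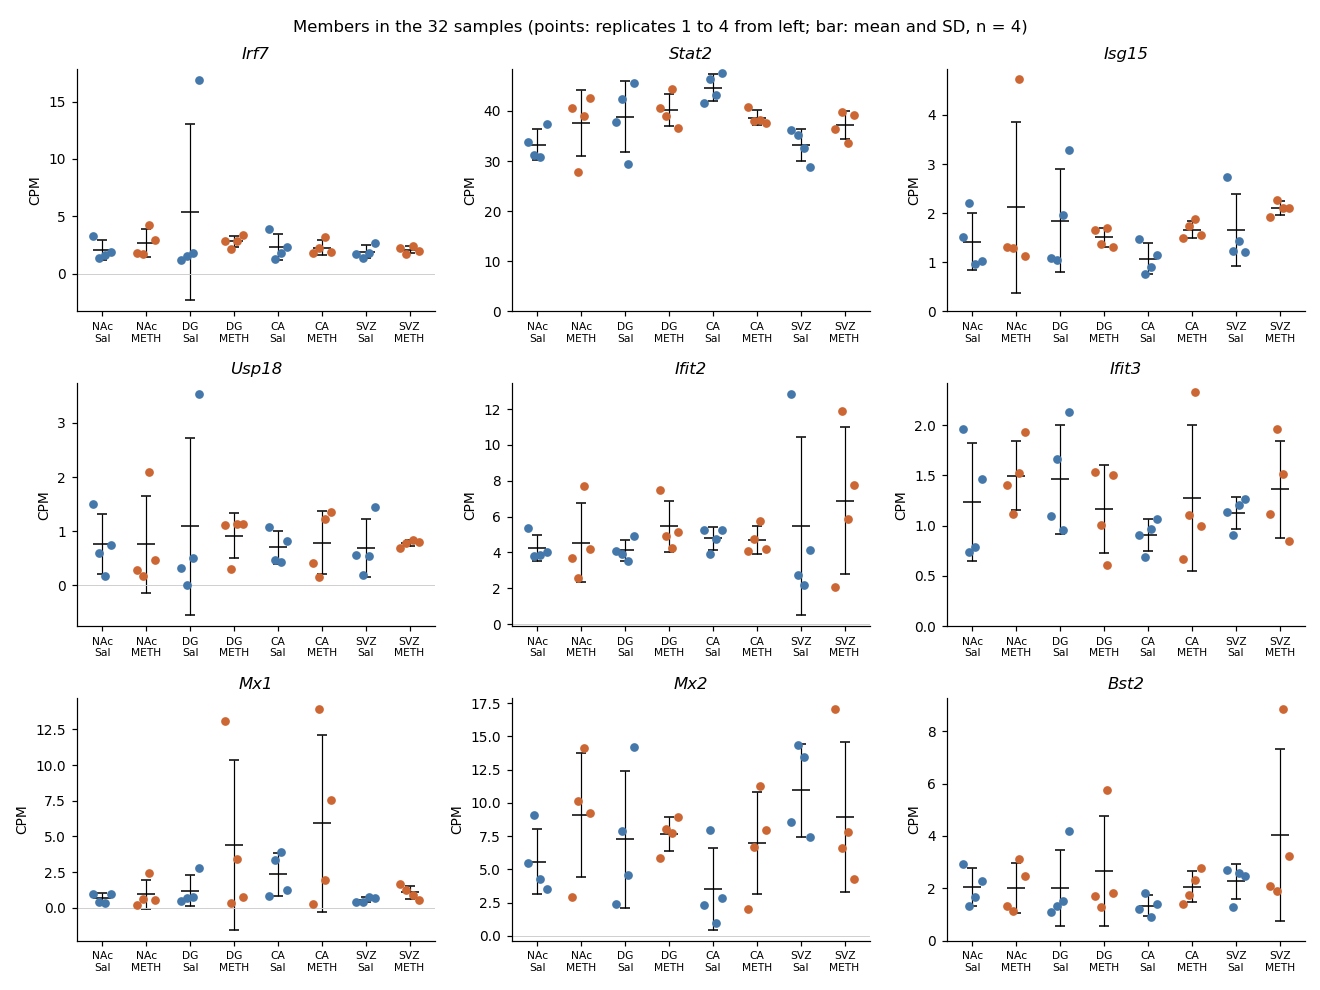
Level of each member in CPM (y axis) in the 8 groups of 4 samples, saline in blue and METH in orange, with the mean and SD. Most groups overlap, Stat2 in the CA and Isg15 in the CA do not, and single libraries stand high for Irf7 (16.9 CPM in DG Sal 4), Mx1 (13.9 CPM in CA METH 2) and Bst2 (8.87 CPM in SVZ METH 3).

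Isg15 (rn6, chromosome 5 from 173624310 to 173626248, minus strand) encodes a ubiquitin-like protein that is attached to other proteins in interferon-treated cells. In CA Sal it was at 1.48, 0.767, 0.909 and 1.15 CPM and in CA METH at 1.5, 1.73, 1.88 and 1.56 CPM. The groups did not overlap, with METH higher, as in 2.58% of the genes tested in the CA, but the gap between the nearest samples (26 reads in CA Sal 1 and 18 reads in CA METH 1, in libraries of different depth) was small. The estimate on the log2 scale was 0.62 (SE 0.25), with an unadjusted p of 0.0366 and an FDR of 0.687. The p was above 0.05 when CA Sal 2, CA Sal 3, CA Sal 4, CA METH 2, CA METH 3 or CA METH 4 was left out, with log2 fold changes of 0.50 to 0.65. In the SVZ the METH samples were at 1.92, 2.27, 2.11 and 2.11 CPM, above 3 of the saline samples (1.24, 1.44 and 1.21 CPM) and below SVZ Sal 1 (2.74 CPM), with a log2 fold change of 0.35 (SE 0.30, FDR 0.979). Without SVZ Sal 1 it was 0.70 (SE 0.22, FDR 0.27). In the NAc the log2 fold change of 0.59 (SE 0.53) came from NAc METH 3, which was at 4.73 CPM while the other METH samples were at 1.32, 1.29 and 1.14 CPM. Without that library it was -0.19 (SE 0.35). In the DG, Isg15 was at 1.05 to 3.29 CPM in saline and 1.32 to 1.69 CPM in METH samples.

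Usp18 (rn6, chromosome 4 from 153805993 to 153834430, plus strand) encodes the protease that removes Isg15 from its targets and dampens signalling at Ifnar2. It was at 0.313, 0, 0.508 and 3.53 CPM in DG Sal, where DG Sal 4 again was the highest, and at 1.11, 0.289, 1.13 and 1.13 CPM in DG METH. In reads these were 4, 0, 8 and 43 in saline and 18, 4, 24 and 18 in METH samples. With METH the estimate on the log2 scale was -0.24 (SE 1.00) with DG Sal 4 and 1.65 (SE 0.79, FDR 0.466) without it. In NAc METH it was at 0.282, 0.172, 2.09 and 0.468 CPM, with NAc METH 3 the highest, and in NAc Sal at 0.174 to 1.51 CPM. It did not pass the filter in the NAc, and without the filter its log2 fold change was 0.02 (SE 0.77). The CA and SVZ gave 0.20 (SE 0.59) and 0.20 (SE 0.53).

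Ifit2 (rn6, chromosome 1 from 252894663 to 252900726, plus strand) and Ifit3 (rn6, chromosome 1 from 252906234 to 252911382, plus strand) are neighbours whose proteins act on translation and on viral RNA. Ifit2 was at 4.07, 3.93, 3.49 and 4.93 CPM in DG Sal and at 7.50, 4.91, 4.27 and 5.15 CPM in DG METH. Its estimate in the DG was 0.41 (SE 0.22, FDR 0.491), the groups overlapped, and 2 METH samples lay above all saline samples. Without DG METH 1 it was 0.22 (SE 0.20). In the SVZ, Ifit2 was at 12.8, 2.76, 2.17 and 4.15 CPM in saline and at 2.08, 11.9, 5.88 and 7.74 CPM in METH samples. The libraries of both groups thus covered nearly the same range, and the log2 fold change of 0.34 had an SE of 0.67. Without SVZ Sal 1 it was 1.19 (SE 0.55, FDR 0.331). In the NAc, where NAc METH 3 was at 7.72 CPM and the other METH samples at 2.58 to 4.21 CPM, it was 0.12 (SE 0.32), and in the CA it was -0.03 (SE 0.17). Ifit3, the partner of Ifit2 in a complex, was between 0.61 and 2.33 CPM in all 32 samples, and its log2 fold change was 0.50 (SE 0.39) for the CA, 0.30 (SE 0.36) for the NAc, 0.28 (SE 0.31) for the SVZ and -0.32 (SE 0.39) for the DG. Single libraries carried these values, which were 0.02 in the CA without CA METH 3, 0.10 in the NAc without NAc Sal 2, 0.05 in the SVZ without SVZ METH 2 and -0.08 in the DG without DG Sal 4.

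Mx1 (rn6, chromosome 11 from 37891156 to 37914983, minus strand) and Mx2 (rn6, chromosome 11 from 38035450 to 38059950, plus strand) encode dynamin-like GTPases that block the entry or replication of viruses. Mx1 had the highest log2 fold change of the members in the DG, CA and SVZ. It was at 0.47, 0.699, 0.762 and 2.79 CPM in DG Sal and at 13.1, 0.361, 3.43 and 0.753 CPM in DG METH. In CA Sal it was at 0.851, 3.37, 3.88 and 1.23 CPM and in CA METH at 0.251, 13.9, 1.94 and 7.52 CPM. The highest and the lowest sample of both regions were METH samples, and the log2 fold changes of 1.89 (SE 1.07, FDR 0.516) in the DG and 1.33 (SE 0.90, FDR 0.749) in the CA did not exceed the spread. In the DG the value was 0.39 (SE 0.88) without DG METH 1 and 2.76 (SE 1.21) without DG Sal 4, and in the CA it was 0.48 (SE 0.89) without CA METH 2. In the SVZ, where Mx1 was at 0.424, 0.38, 0.722 and 0.691 CPM in saline and at 1.65, 1.24, 0.919 and 0.563 CPM in METH samples, 3 of 4 METH samples lay above all saline samples. The log2 fold change there was 0.98 (SE 0.40), with an unadjusted p of 0.0413 and an FDR of 0.979, and the p was 0.0764 when the SVZ METH libraries that share a number were added together and 0.0247 with the tag EXTRA, which 4 of the 8 SVZ library names carry, as a covariate. It lay above 0.05 as well without SVZ Sal 1, SVZ Sal 2, SVZ METH 1, SVZ METH 2 or SVZ METH 3, where the log2 fold change was 0.71 to 1.05. Over the 4 regions Mx1 gave 1.18 (SE 0.47), with an unadjusted p of 0.0181 and an FDR of 0.567. It was 0.91 (SE 0.48) with a p of 0.0681 without NAc METH 3, and 0.80 (SE 0.43) with a p of 0.0734 without DG METH 1. Mx1 was not tested in the NAc, where it had 2 to 35 reads.

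Mx2 was higher in METH samples in the NAc and CA by its mean, with groups that overlapped. It was at 5.50, 9.07, 4.27 and 3.52 CPM in NAc Sal and at 2.91, 10.1, 14.1 and 9.22 CPM in NAc METH, so that 3 METH samples lay above and 1 below all saline samples. In the CA it was at 2.33, 7.98, 0.97 and 2.88 CPM in saline and at 2.00, 6.70, 11.3 and 7.94 CPM in METH samples. Log2 fold changes were 1.01 (SE 0.63) for the CA, 0.72 (SE 0.46) for the NAc, 0.08 (SE 0.47) for the DG and -0.29 (SE 0.43) for the SVZ. In the CA it was 1.78 (SE 0.57, FDR 0.468) without CA Sal 2. The SVZ held the highest level of all, with 17.1 CPM in SVZ METH 1, while the other SVZ METH samples were at 4.27 to 7.81 CPM and SVZ Sal at 7.43 to 14.4 CPM. In the DG, Mx2 was at 2.43 to 14.2 CPM in saline and at 5.90 to 8.98 CPM in METH samples.

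Bst2 (rn6, chromosome 16 from 19938784 to 19942353, minus strand), which encodes tetherin, a membrane protein that holds budding viruses at the cell surface, differed on the log2 scale by 0.84 (SE 0.53) in the SVZ, 0.64 (SE 0.30) in the CA, 0.40 (SE 0.60) for the DG, and 0.00 (SE 0.38) for the NAc. In CA Sal it was at 1.19, 1.84, 0.909 and 1.40 CPM and in CA METH at 1.42, 1.73, 2.33 and 2.77 CPM, with 2 METH samples above all saline samples and an FDR of 0.709. The SVZ value rested on SVZ METH 3, which was at 8.87 CPM, whereas the other METH samples were at 2.08, 1.91 and 3.24 CPM and the saline samples at 2.69, 1.28, 2.60 and 2.48 CPM. Without it, the log2 fold change was 0.09. In the DG, DG METH 3 (5.77 CPM) and DG Sal 4 (4.19 CPM) lay above the other 6 samples, which were at 1.10 to 1.82 CPM.

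In single libraries many members were high at once. DG Sal 4 was the highest of the DG Sal samples in 9 of 9 members, from 4.93 CPM of Ifit2, where the next sample had 4.07 CPM, to 16.9 CPM of Irf7, where the next had 1.78 CPM. Over all 14800 genes tested in the DG, the same library was the highest of its group in 26.6%. Of the 51 tested genes of a list of 66 other genes of the interferon pathway, it was the highest in 37 (72.5%). NAc METH 3 was the highest of its group in 7 of 9 members, in 64.2% of 53 tested pathway genes and in 38.8% of all 14771 genes tested. CA METH 3 led its group in 5 of 9 members, 36.5% of the pathway genes and 29.3% of all genes tested. NAc Sal 1 led in 6 of 9 members, but in 26.4% of the pathway genes beside 27.9% of all genes. DG METH 3 and SVZ METH 3 led in 66.7% and 55.6% of the pathway genes (31% and 25.5% of all genes), but in only 3 of 9 members each. SVZ Sal 4 and CA Sal 2 led in 53.7% and 46.2% of the pathway genes (28.8% and 24.7% of all genes), and in 3 and 2 of 9 members. These libraries were noticed from their values, and the counts describe them.

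**Figure D4:**
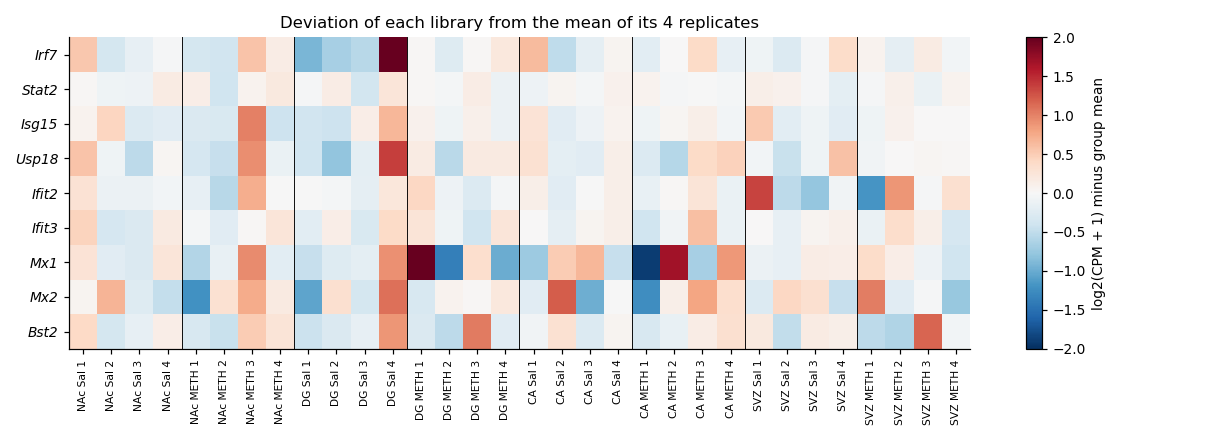
Deviation of log2(CPM + 1) from the mean of the 4 replicates (colour) for the 9 members (rows) in the 32 libraries (columns, with lines between groups). DG Sal 4 is above its group mean in every member and NAc METH 3 in most, while Mx1 has its strongest deviations in DG METH 1, CA METH 1 and CA METH 2.

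The members were also compared between libraries that share a library number across regions. DG Sal 4 shares its number, 23, with NAc Sal 4 and CA Sal 4, where Irf7 was at 1.91 and 2.30 CPM and Usp18 at 0.733 and 0.823 CPM. On a score that averages the members after subtraction of group means, DG Sal 4 was at 1.97 SD units, NAc Sal 4 at 0.10 and CA Sal 4 at 0.16. NAc METH 3, with number 24, was at 1.34, while CA METH 3 and DG METH 3, which carry the same number, were at 0.61 and 0.26 SD units. Of the 8 numbers that occur in the NAc, DG and CA, 5 had scores of the same sign in all 3 regions. This count was not set beside one for libraries of unlike numbers, so it is a description and does not show agreement. Numbers 14, 23 and 24 were above the group mean in each, and numbers 20 and 22 below it. With number 20, NAc METH 1 was at -0.59, DG Sal 1 at -0.88 and CA METH 1 at -0.86 SD units. Over all genes, the deviations of 2 libraries with the same number had a median r of 0.05 (24 pairs, from -0.26 to 0.29), against -0.02 for 168 pairs of other libraries of different regions and a range of -0.48 to 0.63.

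DG Sal 4 also differed from the other DG Sal samples in cell type markers. Its 6 choroid plexus markers summed to 2103 CPM, against 2.0 to 185 CPM in the other 3, its 5 meningeal fibroblast markers to 155 CPM, against 14.2 to 66.2 CPM, and its 4 lymphocyte markers to 5.83 CPM, against 0.19 to 0.437 CPM. Its 6 oligodendrocyte markers summed to 12272 CPM, against 3264 to 7742 CPM. DG METH samples reached 13.6 CPM in the lymphocyte sum (median 6.78 CPM) and 14601 CPM in the oligodendrocyte sum, so such values were not particular to DG Sal 4. All markers of these 4 lists were found in the files. Of the lymphocyte markers, however, Cd3d and Cd79b were at 0 in 23 of the 32 libraries each, Cd2 in 16 and Cd3e in 11. Col1a2 of the meningeal list was at 0 in 27. The 10 microglial markers summed to 245 CPM in DG Sal 4, against 251 to 321 CPM in the other DG Sal samples, so they were not high in DG Sal 4. In NAc METH 3 the striatal sum was low, as given above, while its oligodendrocyte sum was 12757 CPM, against 6103 to 7111 CPM in the other NAc METH samples, and its microglial sum was 407 CPM, against 317 to 371 CPM. The part of these cells in the levels of the members was not tested.

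Leaving DG Sal 4 out moved the comparison in the DG. All members but Ifit3 (-0.08, SE 0.40) then had a log2 fold change above 0, and 1 of 9, Irf7, had an unadjusted p under 0.05 (p 0.0114), as did 12.2% of all genes in that fit. Averaged over the regions without it, 3 of 9 members had an unadjusted p under 0.05, as did 9.33% of all genes. These were Isg15 with 0.42 (SE 0.19, FDR 0.518), Bst2 with 0.62 (SE 0.24, FDR 0.454) and Mx1 with 1.39 (SE 0.48, FDR 0.434), and no member was called. Without NAc METH 3 the members with such a p, averaged over the regions, were 0 of 9 (6.38% of all genes). In the CA, leaving out CA METH 1, in which Mx1 was at 0.251 CPM and Mx2 at 2.00 CPM, raised the members with such a p from 2 to 5, which then included Bst2, Mx1 and Mx2, while the share of all genes with such a p rose from 7.16% to 11%. Of the 34 values of a member in a region, 30 changed sign or moved by over 1.5 times when 1 of the 8 libraries was left out. The other 4 were those of Isg15, Stat2 and Bst2 in the CA and of Mx1 in the SVZ.

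Without the 4 DG libraries with crossed numbers, which leaves 2 saline and 2 METH samples, 0 of 9 members had an unadjusted p under 0.05, beside 6.72% of all genes. Log2 fold changes were then 0.25 (SE 1.01) for Mx1, 0.16 (SE 0.34) for Ifit2, 0.42 (SE 0.81) for Bst2 and 0.10 (SE 0.28) for Stat2. They were -1.59 (SE 1.10) for Irf7, -0.83 (SE 0.98) for Usp18, -0.80 (SE 0.45) for Isg15, -0.55 (SE 0.71) for Ifit3 and -0.17 (SE 0.60) for Mx2. Thus Mx1, the member with the highest value over all DG samples, lay below Bst2, and DG Sal 4 was 1 of only 2 saline samples. In the SVZ, with METH libraries summed by number, the values lay between -0.32 (SE 0.39) for Mx2 and 0.96 (SE 0.45) for Mx1, and the sign was that of the 8 libraries in 9 of 9 members.

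Levels of Bst2 and Ifit2 ran beside markers of particular cells. The 4 libraries with the highest choroid plexus sum were SVZ METH 3 (8343 CPM), DG METH 3 (6246 CPM), CA Sal 2 (2185 CPM) and DG Sal 4 (2103 CPM). Bst2 was at 8.87, 5.77, 1.84 and 4.19 CPM in them, and at 3.24 CPM or less in the other 28 libraries. All 6 choroid plexus markers were found in the files, with Ttr at 0 in 2 libraries, Folr1 in 8 and Clic6 in 1. The sum ranged from 2.0 to 2103 CPM in DG Sal, 9.38 to 6246 in DG METH, 3.79 to 2185 in CA Sal, 2.59 to 357 in CA METH, 12.2 to 389 in SVZ Sal and 8.78 to 8343 CPM in SVZ METH, and did not exceed 19.7 CPM in the NAc. For Ifit2, the 3 SVZ libraries with the highest level, SVZ Sal 1, SVZ METH 2 and SVZ METH 4, were those with the highest oligodendrocyte sum of the SVZ (18910, 26038 and 27724 CPM, against 3915 to 9556 CPM in the other 5). These 3 libraries all carry the tag EXTRA in their names, as does SVZ Sal 2, where Ifit2 was at 2.76 CPM. Outside the SVZ the oligodendrocyte sum was 2343 to 14601 CPM, all 6 of its markers were found, and none was at 0 in any library. These 2 pairs were picked from 9 members and 13 marker lists, and the other pairs are not printed. The part of these cells, or of the tag, in the levels of Bst2 and Ifit2 was not tested.

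**Figure D5:**
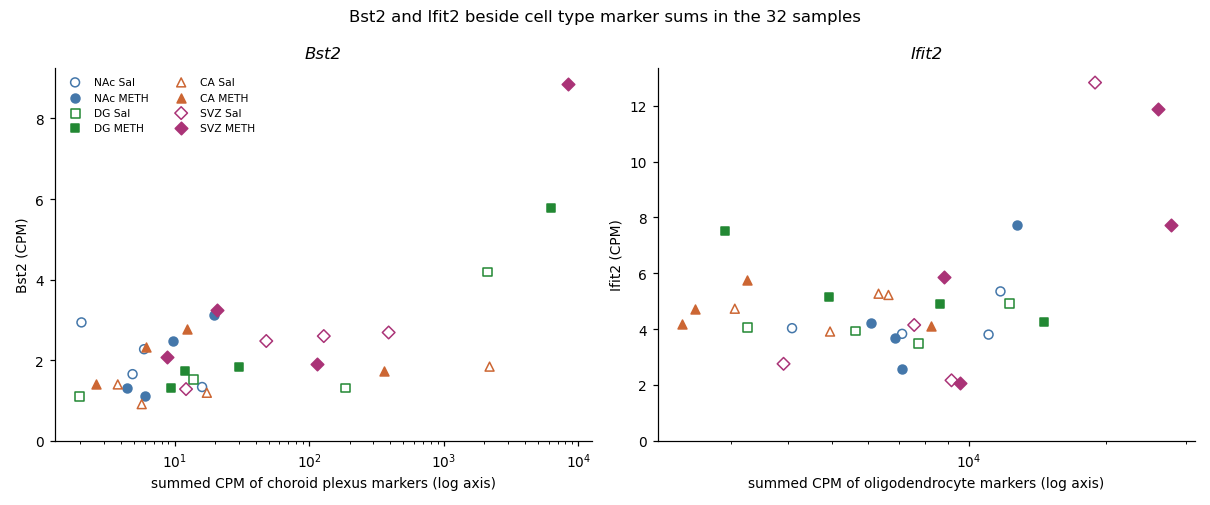
Level of Bst2 against the summed CPM of 6 choroid plexus markers (left) and of Ifit2 against that of 6 oligodendrocyte markers (right), with a log x axis and 1 point for each of the 32 samples. The highest Bst2 levels (8.87 and 5.77 CPM) lie at the highest choroid plexus sums, and the Ifit2 levels of 12.8 and 11.9 CPM lie among the highest oligodendrocyte sums.

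In saline samples, each region was compared with the mean of the other 3, where a call needed an FDR under 0.01 together with more than a 2-fold difference. No member was called in the NAc (0% of all genes called), DG (0%), CA (0.264%) or SVZ (0.0645%), and DESeq2, which called 30, 3, 470 and 219 genes, called 0 members too. At an unadjusted p under 0.05 there were 0 of 9 members in the NAc (15% of all genes), 1 in the DG (6.78%), 3 in the CA (25.7%) and 3 in the SVZ (25.4%). Mx1 was highest in the CA, at 2.34 ± 1.51 CPM (SD, n = 4), against 1.18 ± 1.08 in the DG, 0.67 ± 0.34 in the NAc and, lowest, 0.55 ± 0.18 CPM in the SVZ. Its log2 fold change in the CA against the other regions was 1.61 (SE 0.45, FDR 0.0461), and in the SVZ -1.14 (SE 0.53, FDR 0.193). Stat2 was at 44.7 ± 2.71 CPM in the CA, 38.9 ± 7.04 CPM in the DG and at 33.3 ± 3.08 and 33.2 ± 3.28 CPM in NAc and SVZ samples (SD, n = 4), and its log2 fold change in the CA was 0.35 (SE 0.10, FDR 0.0475).

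Among DG Sal samples, Mx2 was at 14.2 CPM in DG Sal 4 and at 2.43 to 7.86 CPM in the others. By its mean and by its median, Mx2 was highest in the SVZ and lowest in the CA. It was at 10.9 ± 3.47 CPM in the SVZ, 7.27 ± 5.14 in the DG, 5.59 ± 2.46 in the NAc and 3.54 ± 3.07 CPM in the CA (SD, n = 4), with a log2 fold change of 1.07 (SE 0.44, FDR 0.15) in the SVZ and -1.12 (SE 0.51, FDR 0.181) in the CA. The largest contrast between a pair of regions was that of the CA and SVZ, where Mx1 was higher in the CA by 2.06 (SE 0.61, FDR 0.0394), Stat2 by 0.43 (SE 0.12, FDR 0.0369) and Mx2 lower, at -1.64 (SE 0.59, FDR 0.0749), on the log2 scale. In this pair 0.812% of all genes were called and 31.6% had an unadjusted p under 0.05. Neighbours in the order of Mx1 and Stat2 did not differ beyond their spread. On the log2 scale, the NAc and SVZ differed by 0.28 (SE 0.64) in Mx1 and by 0.00 (SE 0.12) in Stat2, the NAc and DG by -0.80 (SE 0.63) and -0.22 (SE 0.12), and the DG and CA by -0.98 (SE 0.59) in Mx1 and by -0.20 (SE 0.12) in Stat2. The DG value of Irf7, 1.36 (SE 0.55, FDR 0.678), came from DG Sal 4 and was -0.46 (SE 0.36) without it. The other members, Isg15, Usp18, Ifit2, Ifit3 and Bst2, had group means of 1.08 to 1.85, 0.68 to 1.09, 4.11 to 5.47, 0.91 to 1.46 and 1.34 to 2.26 CPM in the 4 saline groups, and no comparison of a region with the other 3 had a p under 0.05.

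No other gene of the pathway was called for METH. Of the 66 genes listed, 63 were analysed here, and 51 to 56 were tested in a comparison. Log2 fold changes were above 0 for 45 of 53 in the NAc, 29 of 51 in the DG, 37 of 52 in the CA and 39 of 54 in the SVZ. Over all genes, this share was 57.8%, 48%, 51.1% and 52.9%. These genes are read in the same libraries, so their signs are not independent. In the NAc, NAc METH 3 was the highest of the METH samples in 34 of the 53, or 64.2%, beside 38.8% of all genes tested. At an unadjusted p under 0.05, 1 of 53 was higher and 0 lower in the NAc, 1 of 51 higher and 1 lower in the DG, 2 of 52 higher and 1 lower in the CA, and 2 of 54 higher and 0 lower in the SVZ. In either direction, 3.39%, 12.8%, 7.16% and 2.58% of all genes tested had such a p. By role, 0 of 9 signalling genes had such a p in the NAc, CA or SVZ and 0 of 8 in the DG, and the receptor genes Ifnar1 and Ifnar2 had log2 fold changes of 0.02 (SE 0.04) and 0.01 (SE 0.07) averaged over the regions. Irf9 stood at 0.16 (SE 0.13). In the average over regions 45 of 56 were above 0 on the log2 scale (52.3% of all genes). At such a p, 4 of 56 were higher and 2 lower (7.83% of all genes in either direction). Those with the smallest p were Isg20, an exonuclease that degrades viral RNA, with 0.73 (SE 0.22, FDR 0.495), Cmpk2, a nucleotide kinase, with -0.22 (SE 0.09, FDR 0.565), and Dhx58, an RNA sensor, with 0.33 (SE 0.13, FDR 0.567).

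By region, the 3 pathway genes with the smallest p were of more than 1 role in the NAc, DG and SVZ and were all effectors in the CA. In the NAc they were Tap1, a peptide transporter of antigen presentation (0.67, SE 0.27), the RNA sensor Tlr3 (0.46, SE 0.21) and Oasl2 (0.40, SE 0.19), each with an FDR of 0.999. In the DG they were the receptor chains Ifnlr1 (-1.15, SE 0.33, FDR 0.239) and Ifngr2 (0.45, SE 0.15, FDR 0.285) and the adaptor Mavs (-0.40, SE 0.18, FDR 0.424). Parp9 (0.51, SE 0.15, FDR 0.669), Cmpk2 (-0.40, SE 0.12, FDR 0.669) and Ifit1 (0.88, SE 0.37, FDR 0.688) led in the CA. In the SVZ they were Mavs (0.48, SE 0.14), Isg20 (0.80, SE 0.33) and Rsad2, also called viperin (0.55, SE 0.28), each with an FDR of 0.979. Mavs thus had opposite signs in the DG and SVZ, and its interaction had an unadjusted p of 0.0107 and an FDR of 0.451. Between saline regions, Jak1, the kinase bound to the receptor, was higher in the CA than in the SVZ by 0.69 (SE 0.12, FDR 0.00892) on the log2 scale, which is a fold change under the 2-fold threshold, and the transcription factor Irf3 was lower, at -0.68 (SE 0.16, FDR 0.0176).

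DG Sal 4 was also among the high samples in pathway genes of the saline DG, but was not the only high sample in each. The 3 with the smallest p in the DG against the other regions were Mavs (0.54, SE 0.11, FDR 0.166), Oasl (2.7, SE 0.74, FDR 0.412) and Herc6 (0.86, SE 0.30, FDR 0.621). Oasl, a relative of the oligoadenylate synthetases, was at 0.313, 0.175, 0.444 and 14.8 CPM in DG Sal, so that DG Sal 4 alone was high. Mavs was at 14.6, 14.9, 16.3 and 22.4 CPM, again highest in DG Sal 4. Its other DG Sal values also lay above the highest saline values of the NAc (13.2 CPM), CA (14.1 CPM) and SVZ (12.2 CPM). Herc6 was at 6.34, 20.6, 5.59 and 19.8 CPM in DG Sal, with DG Sal 2 the highest and DG Sal 4 next. In the NAc the 3 with the smallest p were Adar (0.33, SE 0.11, FDR 0.23), Ifi27 (-0.70, SE 0.26, FDR 0.251) and Ifngr1 (0.20, SE 0.08, FDR 0.275). In the CA they were Jak1 (0.53, SE 0.10, FDR 0.0119), Irf3 (-0.42, SE 0.13, FDR 0.0724) and Adar (-0.32, SE 0.11, FDR 0.101), and in the SVZ Irf3 (0.49, SE 0.13, FDR 0.0418), Jak1 (-0.39, SE 0.10, FDR 0.0454) and Mavs (-0.45, SE 0.12, FDR 0.0462).

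The members varied together across samples to a moderate extent. Over the 36 pairs of members, Pearson's r of log2(CPM + 1) across the 32 samples had a median of 0.28 and a range of -0.22 to 0.80, and 33 pairs were above 0. The pair with the highest r was Irf7 and Usp18, at 0.80 over the 32 samples and 0.83 after subtraction of group means, followed by Isg15 and Usp18 at 0.58. DG Sal 4 is the highest sample of both Irf7 and Usp18. The genes of a pair are read in the same libraries, and samples may share animals, so r is a description.

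Among 14447 other genes with a mean of 1 CPM or more, those most like the members over the 32 samples, by r with their mean z score, were Parp14 (0.79), Ifi44 (0.77), RT1-CE4 (0.77), Mrc2 (0.77), Pdlim5 (0.76), Rtp4 (0.76), Igtp (0.74), Slfn2 (0.74), Rnf213 (0.74) and Prob1 (0.73). Parp14, Ifi44, Rtp4 and Igtp are on the pathway list, and RT1-CE4 is a class I gene of the major histocompatibility complex. After subtraction of group means the 10 were RT1-CE4 (0.81), Ifi44 (0.81), Parp14 (0.79), Rsad2 (0.79), Prob1 (0.79), Gch1 (0.78), Tmem252 (0.78), Slfn2 (0.77), Mgat1 (0.77) and Mrc2 (0.76).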

How the data were processed

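RNA was measured in 32 samples. Per the labels and file headers, the authors trimmed reads with cutadapt 2.7, mapped them to rn6 with STAR 2.5.2b and deposited unnormalized read counts per gene, made with featureCounts 1.6.3 (mapping quality of at least 10, no strand) on Ensembl annotation 95. Reads that overlap exons of 2 genes, and reads of close paralogs such as Mx1 and Mx2 or Ifit2 and Ifit3, are uncertain. The series matrix with a reduced gene set was not used.

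Counts were scaled to the upper quartile, filtered with filterByExpr and tested with edgeR 4.0.16 in R 4.3.3. Each SE was taken as |log2 fold change|/√F. Alternatives were TMM, DESeq2 1.42.0, no filter, 1 fit of all samples, a replicate block, 2 RUVr factors, the run as read from the library names, pooled other regions, and leaving out each sample. Leaving out the DG libraries with crossed numbers, summing SVZ METH libraries, the tag EXTRA of SVZ library names as a covariate and the library number as a random block (limma 3.58.1 voom) were chosen after seeing the data. Procedures were run on simulated data with changes in well-counted genes and the same spread for all genes. That run therefore does not cover members with few reads or a larger spread. The 48 pairs of replicates differed by more than sampling noise (chi-square per gene of 16.4 or more). The lowest value, 16.4, was that of SVZ METH 2 and 4, which carry different library numbers and both the tag EXTRA. SVZ METH 1 and 3, without the tag, were at 66.0. SVZ METH 1 and 2 were at 133 and SVZ METH 3 and 4 at 115, where each pair shares a number. What the numbers and the tag stand for was not tested.

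The 9 members, the pathway list and the marker lists were chosen with earlier results of these data known. Named genes are the members, the 3 pathway genes with the smallest p in a comparison (those of the other pairs of saline regions are not printed), Irf9, Ifnar1 and Ifnar2, and the 10 genes most like the members. Python 3.11.15 with pandas 2.3.3 and matplotlib 3.10.9 made tables and figures.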

Additional observations from a re-analysis of the deposited data

Results flagged for a closer look

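In 11 of 72 groups of 4 samples (9 members in 8 groups), the highest or the lowest sample lay apart from the other 3 beyond Dixon's 95% critical value. For normally distributed values about 1 in 20 groups, or 3.6, would do so. CPM of genes with few reads need not follow that distribution, so the 11 groups are a description and not an excess over chance. The groups are not independent, since the same libraries recur. In DG Sal 4, 4 members stood apart, Irf7 at 16.9 CPM (the others at 1.17 to 1.78), Mx1 at 2.79 CPM (0.47 to 0.762), Usp18 at 3.53 CPM (0 to 0.508) and Bst2 at 4.19 CPM (1.10 to 1.52). In NAc METH 3 these were Isg15 at 4.73 CPM (1.14 to 1.32) and Usp18 at 2.09 CPM (0.172 to 0.468). Single members stood high in NAc Sal 1, with Ifit2 at 5.35 CPM (3.80 to 4.03), in SVZ Sal 1, with Isg15 at 2.74 CPM (1.21 to 1.44), and in DG METH 3, with Bst2 at 5.77 CPM (1.30 to 1.82). Low values that stood apart were Usp18 in DG METH 2 at 0.29 CPM (1.11 to 1.13) and Bst2 in SVZ Sal 2 at 1.28 CPM (2.48 to 2.69). The effect of METH on a member was not shown to differ between regions.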

How the results depend on the processing

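No member was called in any of 226 alternatives. Of 352 log2 fold changes of members in alternatives that kept every library or changed several, 21 changed sign, and of 672 that left out 1 library 38 did. Genes called by edgeR and DESeq2 were 0 and 3 in the NAc, 0 and 183 in the DG, 0 and 10 in the CA, 0 and 2 in the SVZ, 0 and 1 on average, 0 and 26 for the difference between regions, and 0 and 30, 0 and 3, 41 and 470, and 10 and 219 for the saline NAc, DG, CA and SVZ. TMM scaling gave 91 and 4 genes in the saline CA and SVZ, where no filter gave 50 and 1, a replicate block 0 and 5, pooled other regions 0 and 6, and the library number as a random block in limma voom 146 and 8.

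The run read from the library names, as a covariate, turned the sign in the NAc of Irf7 (-0.017), Ifit2 (-0.33) and Bst2 (-0.68), in the DG of Irf7 (0.48), Ifit3 (0.41), Usp18 (0.46) and Bst2 (-0.018), and in the CA of Irf7 (0.13). Whether these parts of the names stand for sequencing runs is not stated in the labels. Run and treatment were nearly confounded, so these values rest on fewer samples. In the NAc the only run with both treatments held NAc Sal 3 and 4 and NAc METH 1 and 2. In the DG it held DG Sal 3 and DG METH 1 and 2. In the CA, runs with both treatments held CA Sal 3 and 4 and all METH samples. CA Sal 1 and 2, named merged, were fitted as a run of their own. In the SVZ all library names were read as 1 run, with the tag EXTRA in 4 of 8, and this tag as a covariate turned no sign. Bst2 in the NAc was also -0.033 with TMM, -0.022 without a filter, -0.036 with DESeq2, -0.016 in 1 fit of all samples and -0.014 with RUVr factors. RUVr gave Usp18 0.47 in the DG and Irf7 0.064 in the CA. Without the DG libraries with crossed numbers Mx2 was -0.17, and with the SVZ METH libraries also summed Usp18 was -0.11 on average. With the library number as a random block Irf7 was 0.17 on average. That fit also changes the tool, and its consensus correlation was 0.012 over 32 samples and 0.18 over the saline samples. The cause was not tested.

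Samples with the same replicate number did not deviate together between saline and METH groups (r of -0.74 to 0.37), so the numbers do not pair them there. Between saline regions every r was over 0.1 for the NAc and CA alone (0.10 to 0.29), whose same-numbered samples also share a library number. A replicate block turned Bst2 in the NAc to -0.053, Usp18 in the DG to 0.52 and Irf7 in the CA to 0.025, and moved members at an unadjusted p under 0.05 from 2 to 1 in the CA, 1 to 0 in the SVZ, 1 to 0 in the saline DG and 3 to 1 in the saline SVZ. In the same order, all genes at such a p went from 1046 to 1131 of 14612, 402 to 167 of 15579, 1052 to 1010 of 15515 and 3942 to 3652 of 15515. The count of members also went to 1 in the DG and 0 in the CA and SVZ in 1 fit of all samples (all genes at such a p: 2351, 588 and 832 of 16122). It went to 1 in the CA with DESeq2 (1030 of 14612) or the run (777 of 14612), and to 0 in the SVZ with summed libraries (176 of 16105). On average it went to 0 with both changes (1511 of 16506) or the library number as a block (1117 of 16122). In the saline NAc it went to 1 with TMM, DESeq2 or that block (2329, 2524 and 2412 of 15515). In the saline DG it went to 0 with DESeq2 or that block (1104 and 788 of 15515), and in the saline SVZ to 1 with pooled regions (3379 of 15515).

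Leaving out 1 library gave 0 to 1 such members in the NAc, 0 to 1 in the DG, 1 to 5 in the CA, 0 to 1 in the SVZ, 0 to 3 on average, 0 to 1 for the difference between regions, and 0 to 1, 0 to 2, 2 to 3 and 0 to 3 in the saline NAc, DG, CA and SVZ. The share of all genes with such a p also moved. It was 2.22% to 5.08% in the NAc, 8.16% to 13.9% in the DG, 4.2% to 11% in the CA and 0.984% to 16.4% in the SVZ. On average it was 6.36% to 14.2%, and for the difference between regions 5.35% to 14.5%. In the saline NAc, DG, CA and SVZ it was 8.81% to 20.2%, 3.96% to 14.3%, 17.3% to 30.5% and 19.8% to 27.7%. Log2 fold changes that turned sign ranged in the NAc from -0.27 to 0.30 for Ifit2, -0.19 to 0.88 for Isg15 and -0.29 to 0.22 for Bst2. In the DG the ranges were -1.27 to 0.89 for Irf7, -0.64 to 1.65 for Usp18, -0.49 to 0.13 for Isg15, -0.063 to 0.14 for Stat2, -0.33 to 1.03 for Bst2 and -0.21 to 0.64 for Mx2. In the CA they were -0.28 to 0.34 for Irf7, -0.15 to 0.033 for Ifit2 and -0.17 to 0.52 for Usp18, and in the SVZ -0.061 to 1.19 for Ifit2 and -0.12 to 0.85 for Usp18. On average they were -0.20 to 0.34 for Irf7 and -0.27 to 0.52 for Usp18, and -0.46 to 1.69 for Irf7 in the saline DG. With 0 to 43 reads of Usp18 and 2 to 213 of Mx1 in a sample, counting error limits these 2 genes most.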
